A study of Bos taurus with 27 samples.

Results

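The 200 genes described here were those whose read counts varied least between pools of bovine blastocysts. They were chosen by measured values: counts were expressed as CPM, meaning per 1000000 counts of the same pool, genes whose mean reached 20 CPM were kept, and the coefficient of variation (CV, the SD over pools divided by the mean) was ranked. Of 32637 genes in the table, 5421 reached a mean of 20 CPM. Symbols of ribosomal proteins (RPL, RPS, MRPL, MRPS), the proteasome (PSM), the respiratory chain and ATP synthase (NDUF, UQCR, COX, ATP5), splicing proteins (HNRNP, SRSF, SF3) and heat shock proteins and their partners (HSP, DNAJ) were then dropped, which removed 366 genes and left 5055 eligible genes. The 200 with the lowest CV were 3.96% of these. GAPDH, ACTB, YWHAZ and SDHA, often used as reference genes, were set beside them.

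The study asked whether the maturity of the preovulatory follicle leaves a mark on the embryo. Oocytes from abattoir ovaries were matured in vitro with 20% follicular fluid pooled from follicles of greater or of lesser maturity, fertilized with semen of the same bull and cultured to day 8. RNA of 2 expanding or expanded blastocysts (stage score 7, quality score 1) was combined into each of 27 pools, and about 250 pg of RNA went into a 3' mRNA library. Individual pools were assigned here neither to a treatment nor to a fertilization replicate, so all 27 pools were described as a single set and no treatments were compared.

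Reference genes serve to correct measurements for the amount of material that went into them, and are usually taken from functions that every living cell needs, such as glycolysis, the cytoskeleton and protein synthesis. Their use assumes that the level of their mRNA moves little between samples of the tissue at hand. A blastocyst is a mixture of trophectoderm, which forms the placenta, epiblast, which forms the body, and hypoblast, which forms the yolk sac, and the proportions of these cells, the cell number and the sex can differ between embryos of the same morphology. In RNA from whole embryos, a lower level from fewer cells of a type and from less RNA per cell cannot be told apart.

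Pool totals ran from 10517606 to 44253564 counts (median 22293594), and between 15491 and 18959 genes were counted in a pool. All 10 trophectoderm markers and all 10 hypoblast markers searched for were in the table, as were 9 of 10 epiblast markers. The summed trophectoderm markers lay between 15587 and 38870 CPM, the epiblast markers between 314 and 1305 CPM, and the hypoblast markers between 1578 and 2703 CPM. KRT8 and KRT18 (medians 18607 and 7937 CPM) made up most of the trophectoderm sum (median 26455 CPM). CTSV alone (median 1739 CPM) made up most of the hypoblast sum (median 2203 CPM). Other markers lay lower, with medians of 3.62 CPM for CDX2, 211 CPM for GATA6 and 0.896 CPM for GATA4. The sums thus do not measure the share of a lineage. FGF4 in the epiblast list and SOX17 and FOXA2 in the hypoblast list had a median of 0. Summed leukocyte markers lay between 14.1 and 96.7 CPM and summed cumulus or granulosa markers between 10.7 and 44.3 CPM. Oocyte markers summed to 33.4 to 106 CPM, and sperm markers to 0.256 to 20.5 CPM, with ODF1 at 0 in every pool. Only 6 trophectoderm, 4 epiblast, 6 hypoblast and 2 oocyte markers reached the mean of 20 CPM needed to be chosen. Of the leukocyte, cumulus or granulosa and sperm markers 0 did. No marker was among the 200 genes. With 3.96% of eligible genes chosen in all, so few eligible markers cannot show whether markers were chosen less often. The lowest CV of a lineage marker was 17.7%, of CTSV, a lysosomal protease of the hypoblast list.

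The lowest CV of all eligible genes belonged to SUCLG1, the alpha subunit of succinyl-CoA ligase, which works in the citric acid cycle inside mitochondria (chromosome 11, 50516911 to 50551411, RefSeq annotation of ARS-UCD2.0). Its lowest, median and highest pools held 277, 312 and 355 CPM, a CV of 6.42%. YWHAB, a 14-3-3 protein that binds phosphorylated partners (chromosome 13, 73297853 to 73319790), lay between 882 and 1087 CPM (median 995 CPM) with a CV of 6.77%. Its highest pool was 1.23 times its lowest, the narrowest range among the 200 genes. CFDP2 (chromosome 18, 2733127 to 2753214) lay between 242 and 330 CPM (median 262 CPM) with a CV of 7.27%. CFDP2 lies next to its paralogue CFDP1, a chromatin protein (chromosome 18, 2623336 to 2727409), which was also among the 200 genes, with 96.7 to 148 CPM and a CV of 10.5%. Reads of such related genes may be split between them, so both values are uncertain.

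The next 7 genes had varied roles. RAB11A, a GTPase of recycling endosomes, lay between 944 and 1258 CPM (median 1065 CPM, CV 7.63%). VAPA, a tether between the endoplasmic reticulum and other membranes, lay between 238 and 328 CPM (median 279 CPM, CV 7.90%). TUBA1B, an alpha-tubulin, lay between 1478 and 2073 CPM (median 1785 CPM, CV 7.92%). RBX1, the RING subunit of cullin ubiquitin ligases, followed with a median of 540 CPM (484 to 654 CPM, CV 8.15%), and NAP1L1, a histone chaperone, with a median of 439 CPM (358 to 499 CPM, CV 8.18%). TTC1, an adaptor protein with tetratricopeptide repeats, was the least counted of the first 10 genes, at 89.6 to 124 CPM with a median of 102 CPM (CV 8.25%). DDX39A, an RNA helicase of mRNA export, lay between 180 and 262 CPM (median 229 CPM, CV 8.27%). Pools 33 and 35 each held the lowest value of 2 of these 10 genes and pool 1 the highest value of 3 of them.

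**Figure D1:**
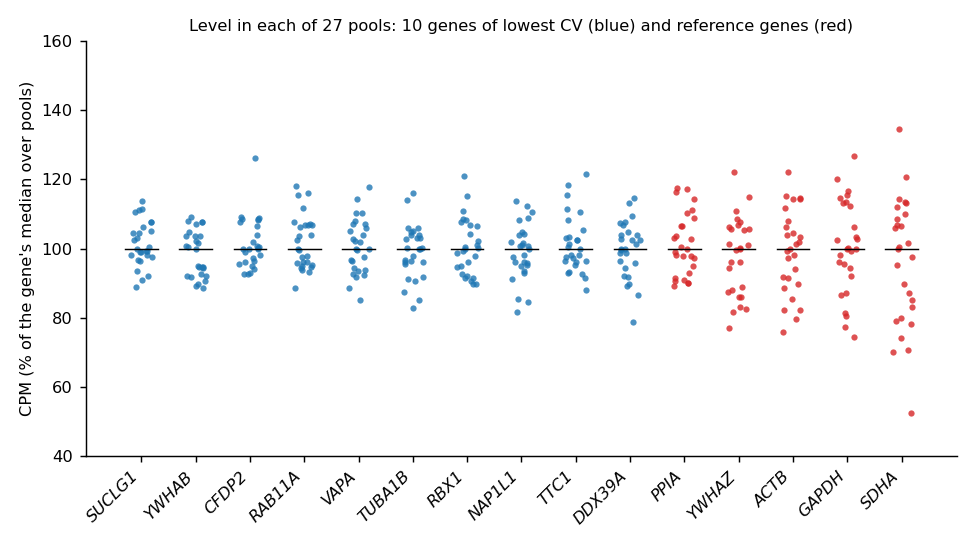
Level of each of the 10 genes of lowest CV (blue) and of PPIA, YWHAZ, ACTB, GAPDH and SDHA (red) in the 27 pools, in percent of the gene's own median over pools. Each point is 1 pool and the black line marks the median; SUCLG1 stayed within 277 to 355 CPM, whereas SDHA ran from 229 to 590 CPM.

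Among the usual reference genes named with the set, only YWHAZ was one of the 200. YWHAZ, another 14-3-3 protein, lay between 560 and 889 CPM (median 727 CPM), and its CV of 11.7% was the 193rd lowest. ACTB, beta-actin, lay between 11217 and 18102 CPM (median 14819 CPM), with a CV of 12.3% and rank 265. GAPDH, a glycolytic enzyme, lay between 1009 and 1722 CPM (median 1357 CPM), with a CV of 13.5% and rank 446. SDHA, the flavoprotein subunit of succinate dehydrogenase, lay between 229 and 590 CPM (median 439 CPM), with a CV of 19.4% and rank 1969 of 5055. The highest pool was 2.57 times the lowest for SDHA, against 1.71 for GAPDH, 1.61 for ACTB and 1.59 for YWHAZ. Pool 9 held the lowest value of both ACTB and SDHA and the highest of YWHAZ. With TMM scaling, which sets pools level on the bulk of genes instead of on the total count, YWHAZ ranked 346 and was no longer among the 200, and GAPDH ranked 1030 with a CV of 16.2%.

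Of 22 usual reference genes searched for in all, 21 were in the table and 17 were eligible, and 2 of these were among the 200. Besides YWHAZ this was PPIA, cyclophilin A, a protein-folding enzyme, with 4305 to 5679 CPM, a median of 4833 CPM, a CV of 8.87% and rank 20. In 13 of the 17 eligible reference genes the CV was below the median of all eligible genes, 21.5%. EEF1A1, which carries tRNAs to the ribosome, had a CV of 14.8%, and the ribosomal protein gene RPS18, dropped by symbol, one of 13.0%. H2AZ1, a histone variant often used in cattle embryos, lay between 1020 and 2202 CPM (CV 16.8%). TBP, the TATA-binding protein, had a CV of 17.0%, PGK1 of glycolysis 17.0%, RPLP0 of the ribosome 18.0%, and CHUK, a kinase of NF-kappa-B signalling, 18.5%. SUZ12, a Polycomb protein, had a CV of 18.6%.

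The widest spread among the reference genes was in B2M, the light chain of MHC class I, with 327 to 1779 CPM and a CV of 54.2%. POLR2A, the largest subunit of RNA polymerase II, had a CV of 45.9% at a mean of 7.74 CPM, too low to be eligible. GUSB, a lysosomal enzyme, had a CV of 34.0%, and TFRC, the transferrin receptor, 32.1%. HPRT1, of purine salvage, and RPL15, of the ribosome, each had a CV of 27.1%. Many of these genes, among them GAPDH, ACTB, PPIA, YWHAZ and EEF1A1, have near-identical relatives or processed copies in mammalian genomes. The same holds for TUBA1B, which is not one of the reference genes. How reads with several matches were counted is not given in the sources used here, so their levels are uncertain to that extent.

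**Figure D2:**
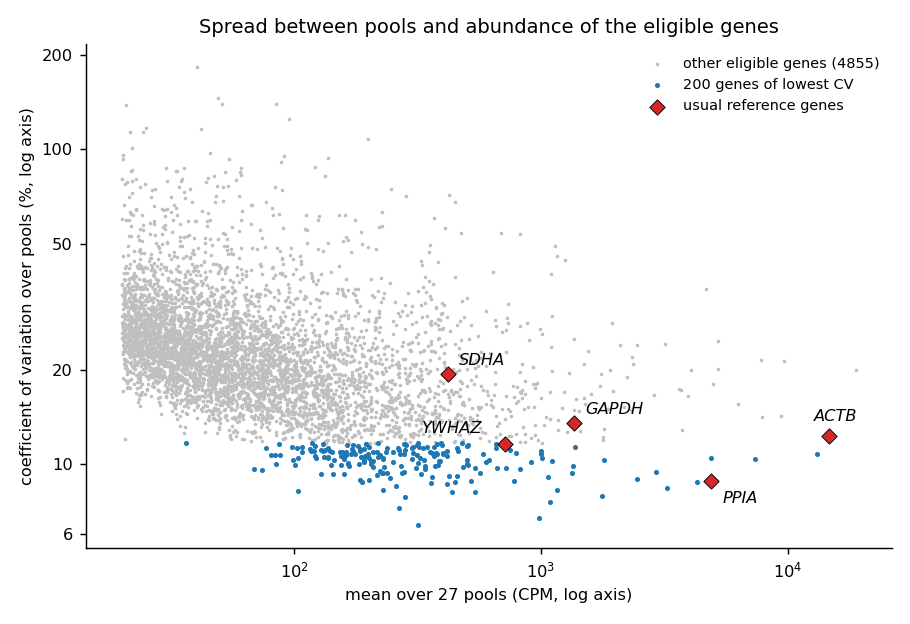
Coefficient of variation over 27 pools (percent, log axis) against mean CPM (log axis) for the 5055 eligible genes, with the 200 genes of lowest CV in blue, other eligible genes in grey and PPIA, YWHAZ, ACTB, GAPDH and SDHA as red diamonds. The 200 genes form the lower edge, from 6.42% to 11.7%, and become more frequent to the right.

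By construction the 200 genes had the lowest CVs, from 6.42% to 11.7% with a median of 10.6%. The highest pool was between 1.23 and 1.84 times the lowest for these genes, with a median of 1.54, against a median of 2.49 over all eligible genes. All 200 stayed within 2-fold, as did 23.7% of eligible genes. Within 1.5-fold stayed 67 of the 200 genes and 1.36% of eligible genes. Counting error alone would give a CV of 0.194% to 3.69% for the 200 genes, with a median of 1.36%. It accounted for a median of 1.77% of their variance over pools and at most 9.93%, in EXOSC5. The spread between pools of each of the 200 genes was thus larger than counting error, which covers only the sampling of reads and not losses before amplification.

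The 200th gene by rank was not set apart from the next. Among the last genes inside were NOL7, a nucleolar protein, RTCB, the tRNA ligase, EXOSC5, an exosome subunit, and MAPRE1, which binds the growing ends of microtubules. MAPRE1, the 200th, had a CV of 11.705%. The first gene outside, SUCLG2, had a CV of 11.721%, and was followed by CHMP2A of membrane scission, ARPC2 of the actin branching complex, IFT20 of intraflagellar transport and UBE2V1, a ubiquitin-conjugating enzyme variant. SUCLG2 encodes a beta subunit that pairs with SUCLG1, the gene of rank 1.

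When 1 pool at a time was left out and the ranking repeated, between 176 and 196 of the 200 genes were chosen again, and 158 were chosen every time. The fewest, 176, were kept without pool 21 and likewise without pool 31.

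The 200 genes were well counted. Their mean level had a median of 268 CPM, against 57.0 CPM over eligible genes, and 189 of them (94.5%) had a mean of at least 100 CPM, against 30.6% of eligible genes. CPM was not divided by gene length, as the library kit copies the 3' end of each mRNA. Of 2249 eligible genes between 20 and 50 CPM, 1 was chosen, EXOSC5, which had the lowest mean of the set at 36.2 CPM. Between 200 and 500 CPM 85 of 529 were chosen (16.1%), and at 1000 CPM or more 19 of 83 (22.9%). Over all eligible genes the Spearman correlation of mean CPM with CV was -0.48, given as a description because genes are not independent of each other. The gene of highest mean among the 200 was the mitochondrially encoded KEH36_p07, cytochrome c oxidase subunit 3, at 10714 to 17633 CPM with a median of 13106 CPM and a CV of 10.8%. It was kept only because the table names it by its locus tag and not by a COX symbol. It was 1 of 13 mitochondrially encoded proteins among the eligible genes.

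Described by function, 78 of the 200 genes (39.0%) fell into 14 families formed by symbol pattern, which held 21.9% of eligible genes. These shares are descriptions to be read against the 3.96% of eligible genes chosen in all, and the families also differ in abundance.

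Protein synthesis and folding held the largest shares. Of 70 translation factors and tRNA synthetases, 13 were chosen (18.6%). EEF1B2, an exchange factor for the elongation factor that delivers tRNAs, lay between 352 and 485 CPM (median 412 CPM, CV 8.67%), EIF4H, which aids the helicase of initiation, between 296 and 440 CPM (median 370 CPM, CV 9.10%), and HARS1, which charges histidine tRNA, between 57.1 and 91.0 CPM (median 74.2 CPM, CV 9.59%). The chaperonin and prefoldin family, which folds tubulin and actin, had 5 of 16 genes (31.3%), namely PDCL3, CCT3, PFDN1, PFDN2 and CCT5. PDCL3, which binds the chaperonin, lay between 212 and 290 CPM (median 260 CPM, CV 8.52%), CCT3 between 435 and 697 CPM (median 577 CPM, CV 9.37%), and PFDN1 between 309 and 452 CPM (median 379 CPM, CV 9.94%). The median CV of all 16 genes was 14.0%.

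Traffic of membranes and proteins followed. Of 199 genes of vesicle traffic and endosomes 14 were chosen (7.04%), led by RAB11A, by ARF1, a GTPase of coat assembly (257 to 397 CPM, median 329 CPM, CV 9.31%), and by VAMP3, a SNARE of endosome fusion (232 to 324 CPM, median 277 CPM, CV 9.47%). Of 71 genes of mitochondrial import, carriers and translation 8 were chosen (11.3%), led by TOMM6 of the outer-membrane import pore (378 to 543 CPM, CV 9.20%), CHCHD1 of the mitochondrial ribosome (186 to 269 CPM, CV 9.54%) and VDAC3, an outer-membrane channel (168 to 259 CPM, CV 9.80%). Of 28 genes of the proton pump of lysosomes and its adaptors 3 were chosen (10.7%): ATP6V1E1 (578 to 851 CPM, CV 9.75%) and ATP6V1D (309 to 513 CPM, CV 10.7%), subunits of the pump, and LAMTOR2 of the lysosomal adaptor (186 to 310 CPM, CV 11.3%). Of 83 genes of the cytoskeleton and motors 9 were chosen (10.8%), with TUBA1B, the myosin light chain MYL12A (1954 to 2904 CPM, median 2472 CPM, CV 9.02%) and KIF5B, a kinesin (224 to 305 CPM, CV 9.37%) first.

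The families of RNA processing, transcription, chromatin and ubiquitin had smaller shares. Of 124 genes of RNA helicases, the spliceosome and 3' end processing 7 were chosen (5.65%), led by DDX39A, by SNRPD1 (409 to 643 CPM, CV 8.89%), a core protein of spliceosomal RNPs, and by LSM3 (742 to 1130 CPM, CV 10.2%), of the ring on U6 RNA. Of 86 genes of the transcription machinery 4 were chosen (4.65%), with GTF2E2, a subunit of TFIIE (150 to 211 CPM, CV 8.90%), ELP5 of Elongator (102 to 149 CPM, CV 9.36%) and POLR2C of RNA polymerase II (97.6 to 162 CPM, CV 11.0%) first. Of 65 chromatin genes 3 were chosen (4.62%): NAP1L1, MORF4L1, which reads methylated histones (1008 to 1473 CPM, CV 8.28%), and SMARCE1, a remodelling subunit (137 to 205 CPM, CV 9.89%). Of 169 genes of ubiquitin and related tags 8 were chosen (4.73%), led by RBX1, the ligase UBE3A (78.6 to 118 CPM, CV 9.97%) and COPS8 of the COP9 signalosome (109 to 165 CPM, CV 9.99%).

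In 4 families 2 or fewer genes were chosen. None of the 39 nuclear pore and transport genes was among the 200; the lowest CV there was 13.4%, of RANBP1, a partner of the transport GTPase Ran. The mRNA decay family gave EXOSC5 alone of 25 genes, and the protein phosphatases gave PPP2CA (475 to 794 CPM, CV 10.3%), the catalytic subunit of phosphatase 2A, alone of 37. Of 99 cell cycle and replication genes 2 were chosen (2.02%), and 1 of these, AURKAIP1 (258 to 391 CPM, CV 11.3%), entered by the start of its symbol and is known as a mitochondrial protein. BUB3 of the spindle checkpoint (354 to 525 CPM, median 453 CPM, CV 8.78%) was the other.

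**Figure D3:**
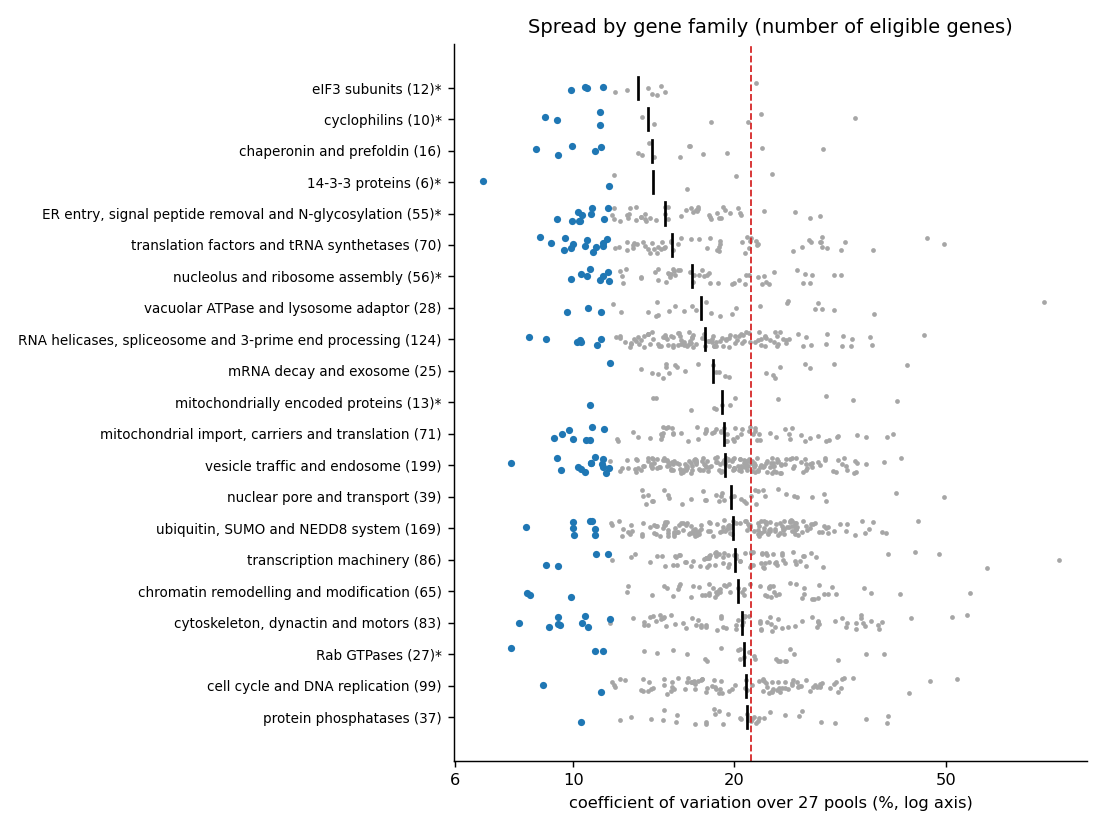
Coefficient of variation over 27 pools (percent, log axis) of every eligible gene in 21 families, with the 200 genes of lowest CV in blue, the others in grey and the family median as a black bar; the number of eligible genes stands in brackets. Families marked with an asterisk were formed after the values were seen, and the dashed line is the median of all eligible genes, 21.5%.

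The 200 genes were searched for further families after their values had been seen, so what follows was chosen for its pattern. Some genes were already counted in the families above, among them RAB11A, RAB2A, RAB10 and the subunits of the initiation factor eIF3. SEC11A, counted next with the endoplasmic reticulum, also stood under vesicle traffic by its symbol. Genes that bring new proteins into the endoplasmic reticulum or add their sugar chains had 10 of 55 members among the 200 (18.2%), such as CAMLG, a receptor for tail-anchored proteins (121 to 190 CPM, CV 9.31%), SPCS2 of signal peptidase (415 to 638 CPM, CV 9.95%) and SSR1 of the translocon (314 to 450 CPM, CV 10.2%). Genes of the nucleolus had 8 of 56 (14.3%), among them NOP58 (277 to 414 CPM, CV 9.90%) and FBL (274 to 443 CPM, CV 10.6%), both of the complex that methylates ribosomal RNA. The family labelled Rab GTPases held 27 genes by symbol, some of them not GTPases themselves, such as RAB11FIP1 and RAB3GAP1. Of these 27, 3 were chosen, RAB11A, RAB2A and RAB10.

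Within a complex or a family of paralogues the spread was unequal. Of 12 subunits of the initiation factor eIF3, 4 were chosen (EIF3L, EIF3D, EIF3H and EIF3E, with CVs of 9.88% to 11.3%). Another 7 had CVs between 12.0% (EIF3G) and 14.9% (EIF3J), and EIF3B stood apart at 22.0%, with 28.3 CPM in its lowest pool and a median of 209 CPM. Among the 14-3-3 genes YWHAB had a CV of 6.77%, YWHAZ 11.7%, YWHAQ 11.9%, YWHAH 16.3%, YWHAG 20.2% and YWHAE 23.5%. Of 10 cyclophilins 4 were chosen, PPIA, PPIH (CV 9.32%), PPID (11.2%) and PPIG (11.2%), while PPIL2 reached 33.7%.

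Other genes outside the 14 families, also picked after their values were seen, were enzymes and signalling proteins. PRDX2, which removes hydrogen peroxide, lay between 2555 and 3851 CPM (median 3221 CPM, CV 8.40%), and CALM2, calmodulin, between 3715 and 5301 CPM (median 4269 CPM, CV 8.78%). ODC1, the first enzyme of polyamine synthesis (1095 to 1589 CPM, median 1349 CPM, CV 9.40%), and OAZ1, the antizyme that binds it and marks it for breakdown (880 to 1247 CPM, median 1079 CPM, CV 9.13%), were both among the 200. FTH1, the ferritin heavy chain, lay between 5935 and 9050 CPM (median 7470 CPM, CV 10.4%). FAU, whose product carries a ribosomal protein, passed the filter on symbols and lay between 1349 and 2113 CPM (CV 10.4%).

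The dropped symbols would have entered often. Without the drop, 74 of the 366 removed genes (20.2%) would have been among the 200 lowest, against 126 of the eligible genes (2.49%). They were led by 19 of 48 RPL genes, 12 of 45 NDUF genes, 11 of 48 MRPL genes and 9 of 43 PSM genes. The lowest was MRPS12, of the mitochondrial ribosome, with a CV of 7.07%, and RPS19 of the cytosolic ribosome had 7.48%. The shares were not matched for abundance. With the removed genes counted in, 33.9% of genes had a mean of at least 100 CPM, against 30.6% of eligible genes. Among eligible genes the share chosen rose with mean CPM, to 22.9% at 1000 CPM or more.

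All 200 genes were protein coding by the RefSeq annotation, as were 98.8% of the eligible genes, and they lay on 30 chromosomes, counting the mitochondrial one. None was on the X chromosome, which held 163 of 5046 annotated eligible genes (3.23%). The X-linked genes were not low in counts: their mean CPM had a median of 65.3, against 56.6 for autosomal genes. At means of 100 CPM or more, 188 of 1468 autosomal genes (12.8%) and 0 of 58 X-linked genes were chosen, and the median CV was 16.6% for autosomal and 28.4% for X-linked genes. In each of the bins from 20 to 50, 50 to 100, 100 to 200 and at least 200 CPM the median CV was higher on the X than on autosomes, with 39.7% against 24.2% in the first and 26.9% against 15.6% in the last. The lowest X-linked gene was TIMM17B, of mitochondrial import, with 174 to 340 CPM, a CV of 16.4% and rank 1097. PGK1 and HPRT1 of the usual reference genes are both X-linked. The sex of the embryos in each pool was not given by the labels, and its part in this was not tested.

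Gene length differed with abundance. The 200 genes spanned a median of 14727 bp in the genome, against 24236 bp for other eligible genes, but at means of 200 CPM or more the medians were 14450 and 14493 bp.

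The ratio of a pair of genes does not depend on the total count, but the 200 genes were chosen for low spread over these same pools, which limits the spread of their ratios. What follows is a description. Over the 19900 pairs of the 200 genes, the SD over pools of the log2 ratio was between 0.10 and 0.31, with a median of 0.21. The steadiest pair was PDCL3 and the myosin light chain MYL12A, whose ratio stayed between 0.0862 and 0.122 (SD 0.10 on the log2 scale). TUBA1B stayed between 6.52 and 8.77 times DYNLRB1, a dynein light chain (SD 0.11), and DDX39A between 0.556 and 0.734 times SSB, the La protein that binds new RNA polymerase III transcripts (SD 0.11). Among GAPDH, ACTB, YWHAZ and SDHA the SD ran from 0.22 for ACTB and SDHA to 0.39 for YWHAZ and SDHA. YWHAZ ran from 1.01 to 3.87 times SDHA, and GAPDH from 1.21 to 2.59 times YWHAZ.

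Each pool was then scaled by a gene in place of its total count, as is done when a measurement is read against a reference gene. The 200 genes were chosen on the scale of the total count, so that scale is favoured by the choice. Scaled by GAPDH, their median CV rose from 10.6% to 18.4%, and all 200 had a higher CV than before. It was 17.6% with ACTB, 14.4% with YWHAZ and 25.5% with SDHA, 13.2% with PPIA, and 13.4% with the geometric mean of GAPDH, ACTB, YWHAZ and SDHA. With the geometric mean of the 10 genes of lowest CV the other 190 genes had a median of 10.5%; those 10 genes were chosen from the same pools as nearly constant on the scale of the total count, so this value follows from the choice.

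**Figure D4:**
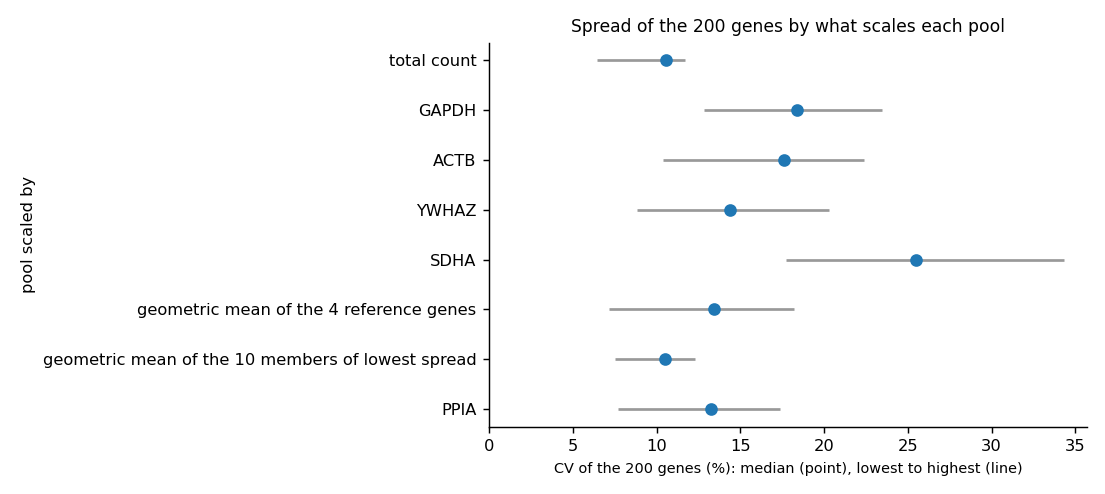
Coefficient of variation of the 200 genes (percent) after each pool was scaled by the total count, by 1 reference gene or by a geometric mean of several; points are medians over the genes and lines run from the lowest to the highest gene. The medians were 10.6% for the total count and 25.5% for SDHA.

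Extreme values were spread unevenly over the pools. The 200 genes together held between 10.7% and 11.6% of all counts of a pool. Pool 32 held the highest value of 24 of the 200 genes and pool 31 the lowest of 27, and the same pools held most extremes among all eligible genes, 545 highest and 908 lowest values. Pool 31 also had the fewest genes counted, 15491. The mean log2 deviation of the 200 genes from their own log2 means ran from -0.07 in pool 31 to 0.07 in pool 32. The first principal component of their log2 levels held 13.1% of the variance, against 16.8% over all eligible genes, and the median correlation of a pair of the 200 genes over the 27 pools was 0.05 (a description, without a test).

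A low CV limits the size of the changes but not their order over pools, so relations with 2 measures were tested. The choice used the total count only as the divisor of CPM and did not use interferon tau. A wide response to either measure would add to a gene's CV, so the choice could have left such genes out. The level of each gene was set against the total count of the pool by Spearman correlation, with a two-sided permutation test of 100000 permutations of the pools and Benjamini-Hochberg adjustment over all 12310 genes with at least 1 CPM in 12 pools. The permutations treat all pools as interchangeable, although several pools shared a fertilization replicate and a treatment. None of the 200 genes was related to the total count at an adjusted p of 0.05, and 0% of all genes were. The limit of 0.05 was met without adjustment by 6 of the 200 genes (3.00%) and by 414 of all genes (3.36%). By Pearson correlation of log2(CPM + 1), also with permutations, 0 genes passed the adjusted limit and 8 of the 200 met 0.05 without adjustment.

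Interferon tau, by which the trophectoderm signals pregnancy in cattle, varied widely among these morphologically alike pools: its 4 genes together gave 7.21 to 597 CPM (median 41.9 CPM). Of 12308 genes tested against this sum, 1.39% passed an adjusted p of 0.05 in either direction and 1.02% as higher with more interferon tau. Of the 200 genes 2 passed (1.00%), both higher, which is near the share of all genes. Without adjustment 26 of the 200 (13.0%) and 15.4% of all genes met 0.05. The sum of interferon tau did not pass as related to the total count (Spearman rho 0.31, permutation p = 0.112; Pearson r 0.29, permutation p = 0.14).

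The first was MAPRE1, the 200th gene by rank. It lay between 263 and 422 CPM (median 312 CPM), with its highest value in pool 9, the pool highest in interferon tau. Its Spearman rho was 0.69 (permutation p = 5e-05, adjusted p = 0.0154) and its Pearson r on log2 values 0.73 (permutation p = 3e-05, adjusted p = 0.00972). Without pools 9 and 14, the farthest from the median of interferon tau, rho was 0.71 (permutation p = 0.00015, adjusted p = 0.0492) and r 0.72. In the 3 pools lowest in interferon tau the median of MAPRE1 was 300 CPM, and in the 3 highest 356 CPM.

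The other was EIF6, an initiation factor that keeps ribosomal subunits apart (chromosome 13, 64547105 to 64553039), with 246 to 397 CPM and a median of 313 CPM. Its rho was 0.66 (permutation p = 0.00023, adjusted p = 0.0315) and its r 0.53 (permutation p = 0.00421, adjusted p = 0.0969), so only the rank correlation passed. Without pools 9 and 14 rho was 0.68 (permutation p = 0.00029, adjusted p = 0.0533) and r 0.54. Its highest value was not in the pools highest in interferon tau but in pool 21.

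For GAPDH, ACTB, YWHAZ and SDHA none of the relations with interferon tau passed. GAPDH had a rho of 0.44 (permutation p = 0.0239, adjusted p = 0.234) and an r of 0.40 (permutation p = 0.0419, adjusted p = 0.269). SDHA had a rho of -0.36 (permutation p = 0.0626, adjusted p = 0.357) and an r of -0.45 (permutation p = 0.0192, adjusted p = 0.194). For ACTB rho was -0.01 (permutation p = 0.977, adjusted p = 0.994) and for YWHAZ -0.07 (permutation p = 0.718, adjusted p = 0.905).

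**Figure D5:**
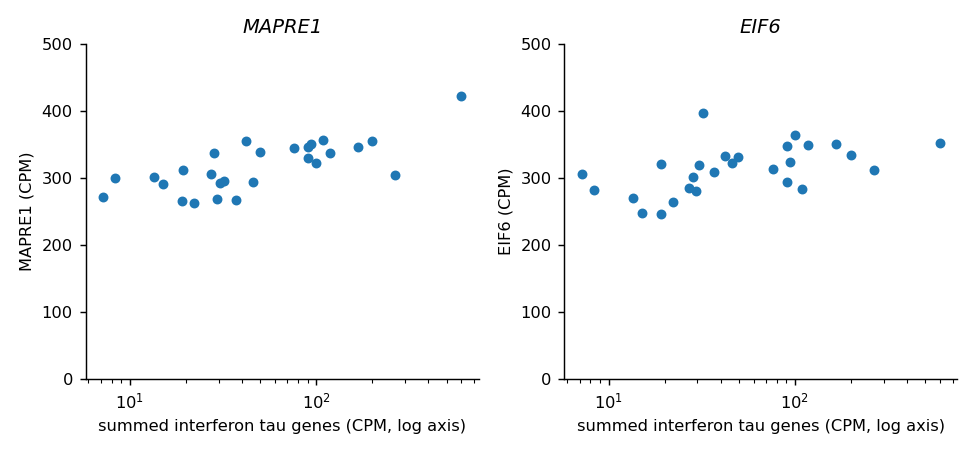
CPM of MAPRE1 and EIF6 in each of the 27 pools against the summed CPM of the interferon tau genes (log axis); each point is 1 pool and the vertical axes start at 0. MAPRE1 ran from 263 to 422 CPM and EIF6 from 246 to 397 CPM while interferon tau ran from 7.21 to 597 CPM.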

How the data were processed

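The authors amplified cDNA from the 3' end of mRNA (SMART-Seq v4 3' DE), and used fastp to trim, STAR to align to ARS-UCD2.0 and featureCounts to count the forward reads. The deposited values are raw read counts without normalization; tool versions, annotation release and strand setting are not given in the sources used here. All 27 columns were used. The 200 genes and the gene lists were chosen with earlier results of these data known, and 7 families were added after the values were seen.

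CPM was computed from the total count over all genes, and CVs used the SD over the 27 pools. The expected counting CV was that of Poisson sampling at each pool's total. Nothing but the 2 relations was tested. Those tests were checked on simulated data of 12310 genes. The test called 200 of 200 genes made to follow a known axis and 11 of 12110 others. The simulated relations were made strong beside each gene's own spread, so the check does not show how often weaker ones would be found. Pools are separate samples by the labels, but treatment and fertilization replicate were not assigned, so no relation was recomputed within batches. The permutation p-values therefore do not account for likeness between pools of the same replicate or treatment. Gene positions are from RefSeq, which matched all 200 genes. The limit shown by 3 counts was between 0.0678 and 0.285 CPM, for counting error only.

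Genes were named by a rule: the 10 of lowest CV, the 5 on each side of the limit, the highest and lowest means, the reference genes, the 3 lowest of each of the 14 families, up to 5 per relation and the 3 steadiest pairs; any other name is marked in the text. A few genes under this rule are not reported here. The alternatives were other scalings (TMM in edgeR 4.0.16, size factors in DESeq2 1.42.0, totals over genes with at least 1 CPM in 12 pools), and changes to the limit on mean CPM, the dropped symbols, the measure of spread, the pools included, the correlation and the genes tested. R 4.3.3 and Python 3.11.15 with numpy 2.4.6, pandas 2.3.3, scipy 1.17.1 and matplotlib 3.10.9 were used.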

Additional observations from a re-analysis of the deposited data

How the results depend on the processing

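No paired analysis was possible because the labels give no treatment and no fertilization replicate. Of 37 alternatives, 35 chose at least 138 of the 200 genes again, and 2 chose fewer: 126 with no family dropped and 101 by the median absolute deviation divided by the median. TMM kept 141 and DESeq2 size factors 138; all of the first 10 genes stayed among the 200 under the 10 settings that used every pool, except under the median absolute deviation, which kept 9. Leaving out 1 pool at a time kept between 176 and 196. The median CV of the chosen 200, 10.6%, was 10.9% with TMM, 10.9% with DESeq2 size factors, 9.94% with no family dropped, 11.7% by the median absolute deviation, 10.4% after taking off the counting variance and 10.2% to 10.7% with 1 pool left out.

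With TMM and with DESeq2 size factors the CV was 16.2% and 16.3% for GAPDH, 13.0% and 12.8% for ACTB, 13.0% and 13.1% for YWHAZ and 21.5% and 21.4% for SDHA. With 1 pool left out it was 12.6% to 13.8% for GAPDH, 11.5% to 12.6% for ACTB, 10.8% to 11.9% for YWHAZ and 17.2% to 19.8% for SDHA, and YWHAZ ranked between 139 and 225. The number of the 200 genes related to the total count was 0 in all 7 alternatives. The number related to interferon tau, 2, was 1 by Pearson correlation with either pseudocount, 1 with DESeq2 size factors, 1 when all genes with any count were tested, 1 without the pools farthest from the median, and 4 when the test was limited to genes averaging at least 20 CPM; with TMM it was 2, of which 1 was the same gene. For each of these changes, the cause was not tested.

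The 2 alternatives on CpG content of promoters were not run, because promoter sequence was not used here. At these depths counting error gave the 200 genes a CV of at most 3.69%; what the small RNA input and the amplification before sequencing add to the spread was not tested.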
